A study of Homo sapiens with 12 samples.

Results

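The core autophagy genes are 10 genes taken by symbol from the 38716 in the deposited tables, namely SQSTM1, MAP1LC3B, GABARAP, GABARAPL1, GABARAPL2, ULK1, BECN1, ATG5, ATG7 and WIPI1. Their mRNA level was the sum of RNA-seq reads in the 5′ UTR, coding sequence (CDS) and 3′ UTR, and their ribosome-protected fragments (RPF) were the Ribo-seq reads of the CDS. The comparison was of senescent (Sen) against proliferating (Pro) cells of IMR90, a widely used human fetal lung fibroblast line with a finite lifespan in culture. All 10 genes passed the filter on low counts in both layers. The mRNA of MAP1LC3B, GABARAPL2 and WIPI1 rose by about 1 or more on the log2 scale. Their RPF was called higher too, a call that held in every alternative for WIPI1 alone and was lost for MAP1LC3B and GABARAPL2 without Sen 1. The mRNA of the other 7 genes had log2 fold changes between -0.16 and 0.32.

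Autophagy wraps a portion of cytoplasm in a growing double membrane, the phagophore, which closes into an autophagosome and fuses with a lysosome. The ULK1 kinase complex starts the process, and a lipid kinase complex built around BECN1 makes the PI3P that recruits WIPI proteins. The E1-like enzyme ATG7 and the ATG12-ATG5 conjugate then attach ubiquitin-like ATG8 proteins, the LC3 and GABARAP families, to lipid in the membrane. Receptors such as SQSTM1, also called p62, bind ATG8 proteins on one side and ubiquitin-tagged cargo on the other, and are degraded with it. Because SQSTM1 and lipid-bound LC3 are consumed by the pathway, their mRNA and footprint levels are not measures of autophagic flux.

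The study set mRNA level beside translation in replicative senescence, the arrest reached by passaging cells until they stop dividing. Each state had 3 lysates from independently grown cultures, harvested in a buffer with cycloheximide, which stalls ribosomes on mRNA. Each lysate gave 1 Ribo-seq library of RNase-protected fragments and 1 RNA-seq library of poly(A) RNA, 12 libraries in all. Cells came from 2 isolates of IMR90, and the labels tie no sample to either. File names of the proliferating RNA-seq libraries also hold a "DSMO" tag that no label explains, so isolate, any such treatment and state cannot be told apart.

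RNA-seq libraries held 7902427 to 14144455 reads in mRNA regions, whereas Ribo-seq libraries held 54421 to 1718521 CDS reads. Ribo-seq libraries Pro 1 and Sen 2 were the shallow ones, and outside SQSTM1 they gave from 0 to 12 counts for each core gene. Their reads also lay less often in the CDS (34.4% and 15.0% of assigned reads) than those of the other Ribo-seq libraries, where the lowest share was 54.7% in Sen 3. The labels were checked on mRNA of known genes: CDKN1A, the p21 cell cycle inhibitor, rose (log2 fold change 1.60), and LMNB1 (-2.84), MKI67 (-2.30), TOP2A (-2.01) and HMGB2 (-2.42) fell. All 8 fibroblast markers exceeded 10 CPM on average, where CPM is a count divided by the TMM-adjusted library size. Epithelial markers summed to at most 2.69 CPM and immune markers to at most 0.44 CPM. Endothelial markers summed to 54.6 to 62.4 CPM in Pro and 93.9 to 106 CPM in Sen, nearly all of it TEK, while PECAM1, CDH5, VWF and CLDN5 stayed under 1 CPM. The TEK sum thus moved with state, and its part in the results was not tested.

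How far reads can be told apart differs between ATG8 genes, and the first 30 coding bases show it (GENCODE v44 on GRCh37, read 5′ to 3′ on the coding strand). MAP1LC3B (LC3B) and its paralog MAP1LC3B2 are shown first, and capitals mark the base at which this stretch differs.
MAP1LC3B: atgccgtcggagaagaccttcaagcagcgC
MAP1LC3B2: atgccgtcggagaagaccttcaagcagcgG

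Over the whole CDS the pair differed at 2 of 375 bases (99.5% identity). The authors' tables gave both genes the same number of CDS reads, within 0.01 read, in 11 of 12 libraries, so a CDS read of either was divided between them. Reads in the UTRs mostly were not: over the 6 RNA-seq libraries, 10644 reads lay in the 3′ UTR of MAP1LC3B against 518 in that of MAP1LC3B2. The CDS level of MAP1LC3B is therefore uncertain, and its RPF value is that of the pair divided by 2.

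GABARAP and GABARAPL1 are shown next, with capitals at the bases where GABARAPL1 differs from GABARAP.
GABARAP: atgaagttcgtgtacaaagaagagcatccg
GABARAPL1: atgaagttcCAgtacaaGgaGgaCcatccC

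GABARAPL1 differed from GABARAP at 6 of these bases. Over their 351 coding bases, identity between the pair was 76.6%, and the longest identical run was 14 bases, shorter than a footprint. GABARAPL1 nonetheless has a near copy, the processed pseudogene GABARAPL3, which is 95.5% identical to it over 354 bases. The tables assigned 214 footprints and 2662 RNA-seq reads to that pseudogene. The CDS of GABARAPL1 had 272 footprints and 2346 RNA-seq reads, so the level of GABARAPL1 is uncertain. Of the 322 windows of 30 bases in the CDS of GABARAP, 80.1% are also found in ENSG00000262526, which overlaps it on the same strand, or in ENSG00000236942, so its level is uncertain too.

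In mRNA, 7 of the 10 genes were called higher and 2 lower in senescent cells, where a call is an adjusted p under 0.15 in the quasi-likelihood test of edgeR over all genes. Among all 12787 genes tested, 36.6% were called higher and 37.0% lower. The median log2 fold change was 0.21 over the 10 genes and -0.01 over all genes. The 2 groups of libraries did not overlap for 6 of the 10 genes, 4 with Sen above and 2 with Sen below, against 67.8% of all genes. In these bulk libraries, fewer cells of a kind and less RNA per cell cannot be told apart, and p-values measure the spread between these 3 samples a state. On library totals without TMM factors, where the median over all genes was -0.11, the calls of GABARAP (adjusted p = 0.334), GABARAPL1 (0.558) and BECN1 (0.185) were lost.

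**Figure D1:**
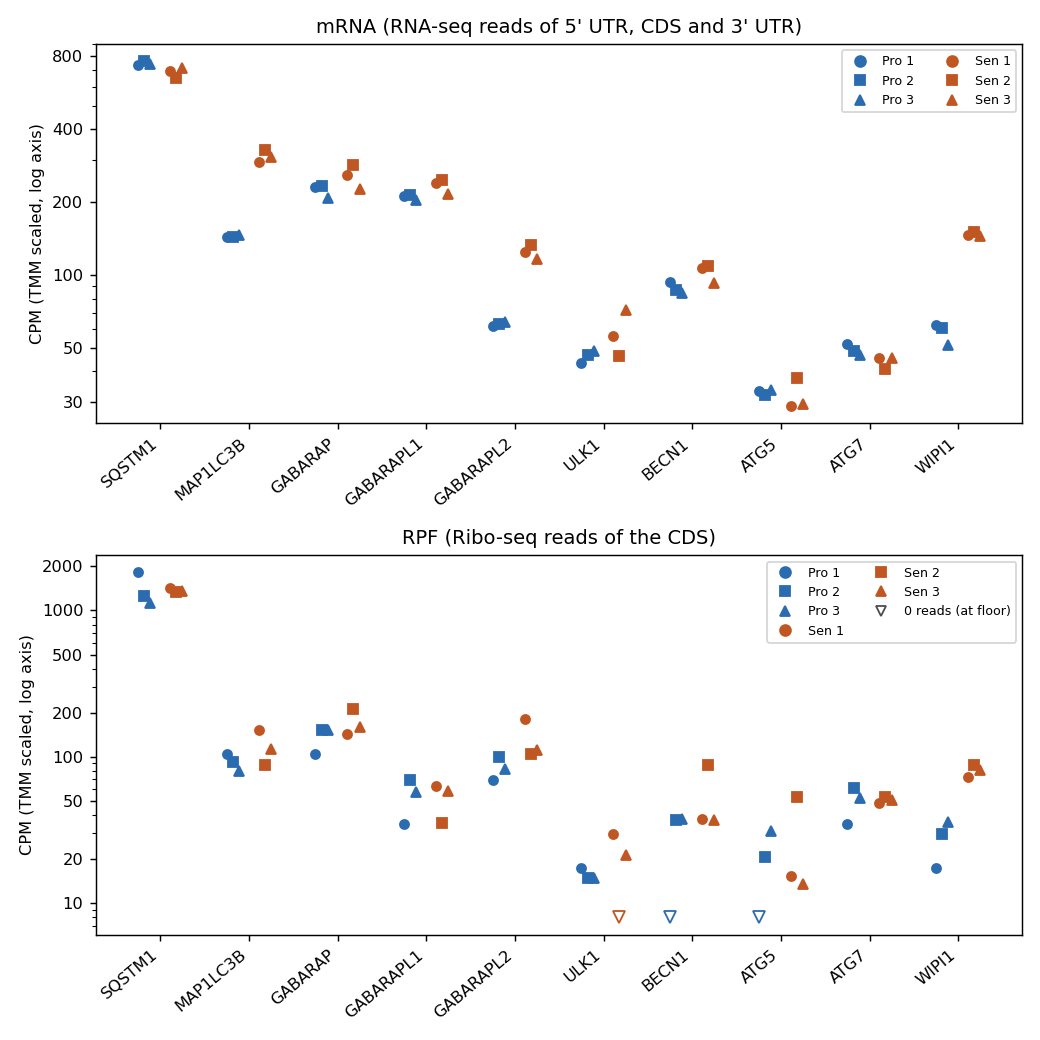
Level of each core autophagy gene in every library, mRNA in the upper panel and RPF in the lower, in CPM, on log axes. Blue points are proliferating and orange points senescent lysates, with a symbol for each lysate number, and open triangles are libraries with 0 reads. MAP1LC3B, GABARAPL2 and WIPI1 have all 3 senescent mRNA values above all 3 proliferating ones by a wide margin, and the RPF values of Pro 1 and Sen 2 scatter most.

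The ATG8 genes divided into those that rose strongly and those that barely moved. MAP1LC3B (chr16:87417559-87438385, plus strand, GRCh37) had 143, 144 and 146 CPM of mRNA in Pro 1, 2 and 3 and 292, 327 and 307 CPM in Sen 1, 2 and 3. Every senescent library lay above every proliferating one, with means of 144 ± 1.11 and 309 ± 17.6 CPM (SD, n = 3 each). The mRNA log2 fold change was 1.10 ± 0.07 (SE; edgeR adjusted p = 1.12e-11), a 2.14-fold rise.

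GABARAPL2 (GATE-16; chr16:75600273-75611779, plus strand), a GABARAP-family protein also studied in Golgi transport, had 61.6, 63.1 and 63.9 CPM of mRNA in Pro and 125, 133 and 116 CPM in Sen. The groups were far apart, and the mRNA log2 fold change was 0.99 ± 0.08 (edgeR adjusted p = 1.68e-10), a 1.98-fold rise. GABARAP (chr17:7143327-7145768, minus strand) had 231, 233 and 209 CPM of mRNA in Pro and 258, 285 and 227 CPM in Sen, and the groups overlapped. Its mRNA log2 fold change of 0.20 ± 0.08 passed the threshold (edgeR adjusted p = 0.0391), but no longer without Pro 3 (adjusted p = 0.172) or Sen 2 (0.219). GABARAPL1 (chr12:10365057-10375727, plus strand) had 212, 215 and 205 CPM of mRNA in Pro and 239, 248 and 217 CPM in Sen. Sen 3 lay just above the highest Pro value, and the mRNA log2 fold change was 0.15 ± 0.07 (edgeR adjusted p = 0.0618). That call was lost without Pro 3 (0.163), Sen 1 (0.173) or Sen 2 (0.177).

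WIPI1 (chr17:66417089-66453654, minus strand), which binds PI3P on the phagophore, had the highest mRNA fold change of the 10. Its mRNA level was 62.2, 60.7 and 51.5 CPM in Pro and 146, 151 and 145 CPM in Sen. The senescent libraries lay close together and far above the proliferating ones. The mRNA log2 fold change was 1.35 ± 0.08 (edgeR adjusted p = 2.37e-12), a 2.54-fold rise. Exons of WIPI1 overlap ARSG on the opposite strand, and since no source used here states whether strand was used in counting, reads there cannot be told apart. The same holds for SQSTM1 with MRNIP, BECN1 with CNTD1, ATG7 with VGLL4 and GABARAP with ENSG00000279641.

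ULK1 and BECN1, from the complexes that start autophagy, had small positive mRNA changes. ULK1 (chr12:132379167-132407695, plus strand), the initiating kinase, had 43.3, 46.8 and 48.5 CPM of mRNA in Pro and 56.3, 46.5 and 71.6 CPM in Sen. Sen 3 was highest and Sen 2 lay within the proliferating range. The mRNA log2 fold change of 0.32 ± 0.11 (edgeR adjusted p = 0.015) fell to 0.13 without Sen 3 (adjusted p = 0.219). BECN1 (beclin 1; chr17:40962152-40985367, minus strand) had 93.6, 86.6 and 84.7 CPM of mRNA in Pro and 107, 109 and 93.0 CPM in Sen. Pro 1 lay just above Sen 3, so the groups overlapped. The mRNA log2 fold change was 0.22 ± 0.08 (edgeR adjusted p = 0.0153), a call that held without any 1 library.

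The 2 conjugation genes among the 10 were not called higher. ATG7 (chr3:11313995-11599139, plus strand) had 51.7, 48.7 and 46.8 CPM of mRNA in Pro and 45.3, 40.9 and 45.6 CPM in Sen. The groups did not overlap although Pro 3 and Sen 3 were close, and the mRNA log2 fold change was -0.16 ± 0.08 (edgeR adjusted p = 0.088). That call was lost without Pro 1 (0.235), Pro 2 (0.16) or Sen 2 (0.236). ATG5 (chr6:106493298-106773666, minus strand) had 33.1, 32.0 and 33.7 CPM of mRNA in Pro and 28.8, 37.5 and 29.5 CPM in Sen. Sen 2 was above and the other 2 senescent libraries below the proliferating range, and the mRNA log2 fold change of -0.03 (95% interval -0.24 to 0.18; edgeR adjusted p = 0.799) was not called. Without Sen 2 it was -0.18 and was called (adjusted p = 0.0929).

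SQSTM1 (chr5:179233398-179265078, plus strand), the cargo receptor, had 736, 764 and 745 CPM of mRNA in Pro and 697, 650 and 717 CPM in Sen. Every senescent library lay below every proliferating one, but by little, and the mRNA log2 fold change was -0.12 ± 0.07 (edgeR adjusted p = 0.136). Leaving out any 1 of Pro 1, Pro 2, Pro 3, Sen 1 and Sen 2 ended this call, with adjusted p from 0.154 to 0.316. It held without Sen 3 (-0.16, adjusted p = 0.0542). The call also moved with the scaling. On library totals, where the median over all genes was -0.11, the value was -0.23 (edgeR adjusted p = 0.00679). With RLE factors it was -0.12 and not called (0.154).

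Levels of different genes were compared per kilobase of coding sequence, with RNA-seq reads of the CDS alone. In proliferating cells SQSTM1 was highest at 615 ± 14.1 CPM per kilobase, followed by GABARAP at 532 ± 30.8, uncertain as above. As counted, GABARAPL1 (157 ± 3.19, uncertain as above) and GABARAPL2 (150 ± 13.5) did not differ beyond their spread. MAP1LC3B followed at 101 ± 2.13 with its reads divided as above. BECN1 (79.6 ± 5.33), WIPI1 (57.1 ± 3.90), ATG5 (31.2 ± 1.29), ATG7 (19.7 ± 0.293) and ULK1 (14.0 ± 1.29) completed the order, each apart from its neighbours by more than their SDs.

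In senescent cells the same CDS levels gave another order. GABARAP (623 ± 75.3 CPM per kilobase, uncertain as above) and SQSTM1 (569 ± 34.5) overlapped at the top. GABARAPL2 came next at 314 ± 26.2, followed by MAP1LC3B (191 ± 14.5) and GABARAPL1 (168 ± 13.1), which overlapped and are both uncertain as above. WIPI1 (144 ± 6.05) now stood above BECN1 (93.9 ± 8.65), and ULK1 (18.3 ± 4.66) and ATG7 (17.5 ± 1.08) did not differ beyond their spread.

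At the level of footprints, 4 of the 10 genes were called higher (MAP1LC3B, GABARAPL2, ULK1 and WIPI1) and 1 lower (ATG5) by the same edgeR test. Of all 7521 genes tested in RPF, 27.5% were called higher and 26.9% lower. On library totals without TMM factors, the share of higher genes among RPF calls went from 50.5% to 39.1% and the median RPF log2 fold change over all genes from near 0 to -0.14, while the 10 genes gave 4 higher and 1 lower on both scales. The groups did not overlap for 2 of the 10 genes, against 32.5% of all genes. The SE of an RPF log2 fold change was 0.17 to 0.36 for the 10 genes, against 0.07 to 0.11 in mRNA.

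WIPI1 had 1, 20 and 60 RPF counts in Pro and 108, 5 and 42 in Sen, or 17.4, 29.7 and 35.8 CPM against 72.4, 87.9 and 81.7 CPM. Every senescent library lay above every proliferating one, in the shallow libraries too. The RPF log2 fold change was 1.19 ± 0.24 (edgeR adjusted p = 4.61e-05), and the call held in all 14 alternatives, with adjusted p up to 0.07. This was the only RPF call of the 5 that held in DESeq2, without any 1 library and with the replicate number as a block.

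GABARAPL2 had 4, 67 and 138 RPF counts in Pro and 270, 6 and 57 in Sen, or 69.4, 99.4 and 82.3 CPM against 181, 105 and 111 CPM. The groups did not overlap, with Sen 1 highest and the other 2 senescent libraries just above Pro 2. The RPF log2 fold change of 0.80 ± 0.19 (edgeR adjusted p = 0.000387) was 0.35 without Sen 1 (adjusted p = 0.384).

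MAP1LC3B had 6, 62 and 135 RPF counts in Pro and 227, 5 and 58 in Sen, or 104, 92.0 and 80.5 CPM against 152, 87.9 and 113 CPM. Sen 2, with its 5 counts, lay within the proliferating range. The RPF log2 fold change was 0.66 ± 0.19 (edgeR adjusted p = 0.00297). It was 0.38 without Sen 1 (adjusted p = 0.335) and 0.52 without Pro 3 (0.166), and the call was lost in both. With the reads of MAP1LC3B and MAP1LC3B2 added together, an alternative chosen after seeing the data, the RPF log2 fold change was 0.63 (adjusted p = 0.0015) and that of mRNA 1.07 (adjusted p = 1.36e-11).

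The 2 other RPF calls rested on few reads. ULK1 had 1, 10 and 25 RPF counts in Pro and 44, 0 and 11 in Sen, and its RPF log2 fold change was 0.80 ± 0.36 (edgeR adjusted p = 0.064). It lost the threshold without Sen 1 (0.36, adjusted p = 0.729) or Pro 3 (0.80, adjusted p = 0.274). ATG5, which joins ATG12 in the conjugate that drives ATG8 lipidation, had 0, 14 and 52 RPF counts in Pro and 23, 3 and 7 in Sen. In the 4 deep libraries this was 20.8 and 31.0 CPM in Pro 2 and 3 against 15.4 and 13.6 CPM in Sen 1 and 3, with both senescent values below. The 3 counts of Sen 2 amounted to 52.7 CPM, so that the mean CPM was higher in Sen (27.3) than in Pro (17.3), whereas the fit, which weights libraries by their counts, gave an RPF log2 fold change of -0.73 ± 0.36 (edgeR adjusted p = 0.0997). It was -0.88 without both shallow lysates (adjusted p = 0.0388), and it lost the threshold without Pro 3 (-0.22, adjusted p = 0.808), Sen 1 (-0.54, 0.538) or Sen 3 (-0.61, 0.281).

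SQSTM1 carried most of the footprints, 5722 of them over the 6 libraries. It had 105, 839 and 1882 RPF counts in Pro and 2126, 76 and 694 in Sen, or 1820, 1250 and 1120 CPM against 1420, 1340 and 1350 CPM. Pro 1 was highest and Pro 2 and 3 lowest, with the senescent libraries between them. The RPF log2 fold change was 0.07 ± 0.17 (95% interval -0.28 to 0.42; edgeR adjusted p = 0.773). Without both shallow lysates it was 0.24 and was called (adjusted p = 0.0828).

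The other 4 genes had no RPF call. GABARAP had 104, 153 and 153 CPM of RPF in Pro and 143, 211 and 159 CPM in Sen, and its RPF log2 fold change was 0.02 (95% interval -0.32 to 0.37). For GABARAPL1, with 272 footprints in all, it was 0.01 (-0.44 to 0.45), and 0.08 with the GABARAPL3 reads added. BECN1, with 0 counts in Pro 1 and 5 in Sen 2, had an RPF log2 fold change of 0.12 (-0.46 to 0.70), and ATG7 had -0.14 (-0.63 to 0.34). These intervals leave room for changes as large as those seen in mRNA for the same 4 genes.

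**Figure D2:**
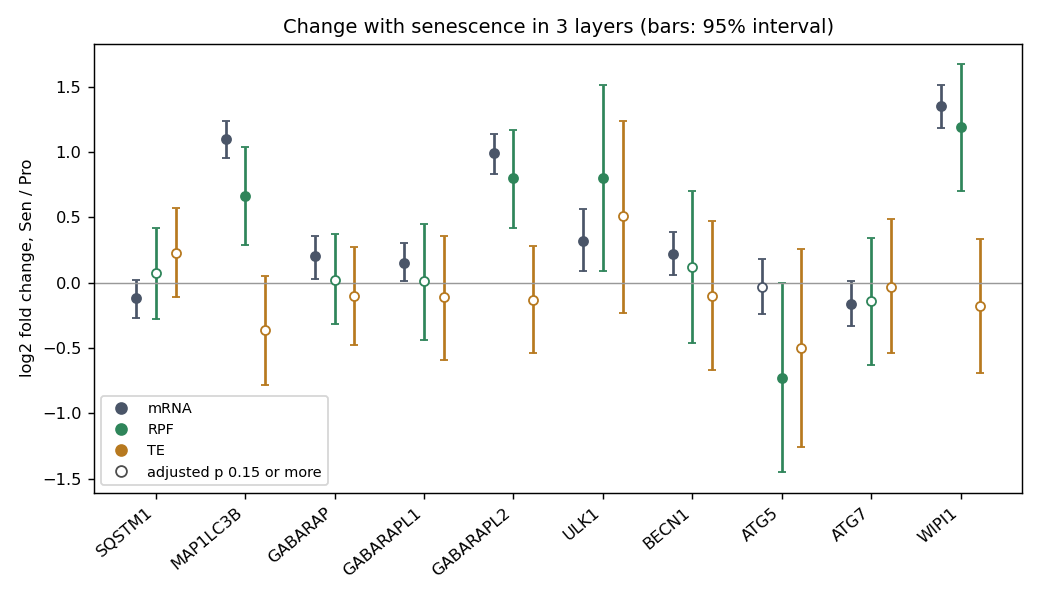
Log2 fold change of senescent over proliferating cells for each core gene in mRNA (grey), RPF (green) and translational efficiency (TE, amber), with 95% intervals, where filled points passed an adjusted p of 0.15. WIPI1, GABARAPL2 and MAP1LC3B rise in mRNA and RPF, and no TE point is filled.

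Translational efficiency (TE) is the RPF level relative to the mRNA level of the same lysate, and its change was tested as the interaction of library type with state. No gene of the 10 was called in TE by edgeR, where the smallest adjusted p was 0.35, none had an unadjusted p under 0.05, and DESeq2 called 0 as well. Of all 7473 genes tested, 10.0% were called in either direction, and the share of higher genes among them was 62.8%, or 44.1% to 52.4% under the other scalings. The median TE log2 fold change was -0.11 over the 10 genes and 0.03 over all genes. The SE of a TE log2 fold change was 0.17 to 0.38 for the 10 genes.

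MAP1LC3B had the TE change nearest to the threshold and the only TE values that did not overlap between states, against 16.2% of all genes without overlap. Its TE values (log2 of RPF over mRNA, each count raised by 0.5) were -0.35, -0.64 and -0.85 in Pro and -0.94, -1.76 and -1.43 in Sen. Its RPF is that of the pair with MAP1LC3B2 divided by 2, while its UTR reads mostly were not divided. The TE values of MAP1LC3B may therefore be too low in both states. Every senescent lysate lay below every proliferating one, although the TE log2 fold change of the fit was -0.36 ± 0.21 (95% interval -0.78 to 0.05; edgeR adjusted p = 0.35). SQSTM1 had TE values of 1.31, 0.71 and 0.59 in Pro and 1.03, 1.05 and 0.91 in Sen. Its TE log2 fold change of 0.23 ± 0.17 (adjusted p = 0.492) became 0.35 without both shallow lysates, and was then called (adjusted p = 0.0909). TE log2 fold changes of the remaining 8 genes ran from -0.50 for ATG5 to 0.51 for ULK1, with adjusted p of at least 0.478. WIPI1 (-0.18, 95% interval -0.69 to 0.33) and GABARAPL2 (-0.13, -0.54 to 0.28) had intervals that include 0.

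Genes also differed in how many footprints they carried per mRNA read within a state. With CDS reads in both library types and the deep lysates alone, the log2 ratio of RPF to mRNA was 1.12 to 1.25 in Pro and 0.78 to 1.02 in Sen for MAP1LC3B. It was 0.78 to 0.92 and 0.13 to 0.71 for GABARAPL2, and 0.44 to 0.61 and 0.75 to 0.95 for SQSTM1. The lowest ratios belonged to ULK1 (-1.66 to -1.62 in Pro, -1.79 to -0.87 in Sen), BECN1 (-1.53 to -1.42 and -1.79 to -1.62) and WIPI1 (-1.41 to -0.98 and -1.38 to -1.20). WIPI1 thus stayed among the genes with few footprints per mRNA read in both states while its mRNA and RPF rose. These ratios are relative to the scaling within each library type and describe 2 lysates a state.

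The regions of the mRNA were then looked at apart, since the summed level does not show them. The 3′ UTR held from 9.6% of RNA-seq reads (WIPI1) to 68.7% (MAP1LC3B) in Pro. CDS reads of MAP1LC3B were divided with MAP1LC3B2 while its UTR reads mostly were not, which can raise its 3′ UTR share. For MAP1LC3B its share was 72.1%, 67.7% and 66.5% in Pro and 69.9%, 74.0% and 71.0% in Sen, which overlapped. The difference of 2.9 points had p = 0.3 in a two-sided exact permutation test of 3 libraries against 3, which cannot give less than 0.1. The shares overlapped between states for all 10 genes, against 12.8% of all genes without overlap, and differences ran from -2.0 points (GABARAPL2) to 2.9 points with p adjusted over the 10 genes of at least 0.833. With 5′ UTR reads left out, the shares of MAP1LC3B and GABARAPL1 no longer overlapped. They were higher in Sen by 2.6 and 1.2 points (exact permutation p = 0.1 each, the smallest possible and not adjusted). How many of all genes were without overlap in this setting was not computed. The 3′ UTR share of whole libraries, 5′ UTR reads included, was 24.7% to 25.1% in Pro and 26.8% to 28.9% in Sen. Both genes also have a near copy to which reads were assigned, as described above. The part of the near copies and of the library-wide difference in these shares was not tested.

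**Figure D3:**
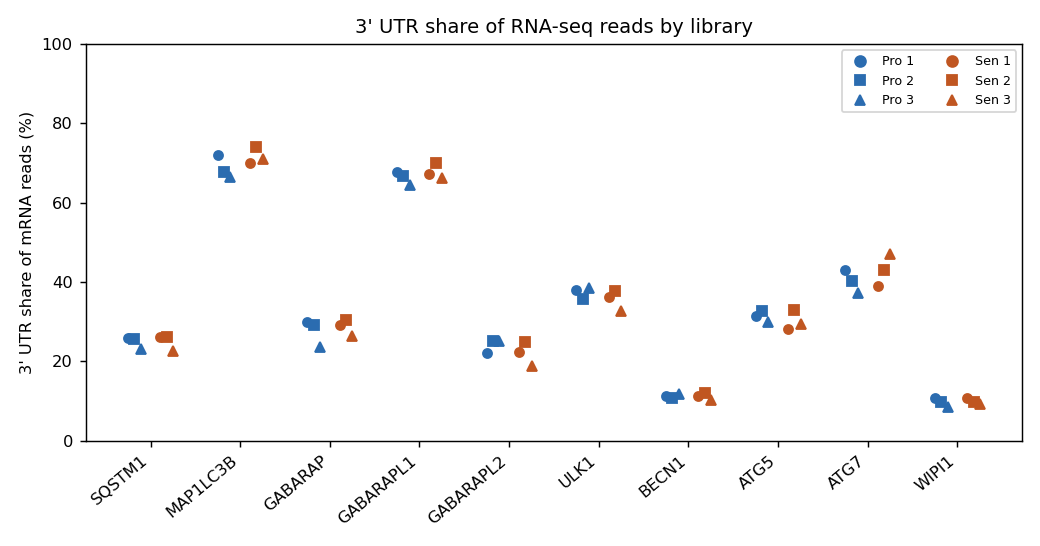
Share of a gene's RNA-seq mRNA reads that lay in the 3′ UTR, in percent, for every RNA-seq library (blue Pro, orange Sen, a symbol for each number). Genes differ far more from each other than the states do, and Pro and Sen points overlap for all 10 genes.

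Ribo-seq reads in the 5′ UTR, called footprints here, can mark ribosomes upstream of the main reading frame, which was not tested. They were most frequent in 2 genes. BECN1 had 44 footprints in its 5′ UTR over the 6 Ribo-seq libraries, 26 of them in Sen 1. They made up 20.7% of its 5′ UTR and CDS footprints (95% Wilson interval 15.8 to 26.7), and GABARAPL1 had 14.4% (11.1 to 18.8). The GABARAPL1 share leaves out the 214 footprints assigned to GABARAPL3, and with them it would be lower. The median over all genes tested in RPF was 1.02%, and shares as high were found for 1.77% and 3.71% of those genes. In BECN1 the 5′ UTR share was 10.7% in Pro 2 and 12.5% in Pro 3, and 31.5% in Sen 1 (22.6 to 42.4) and 17.4% in Sen 3. In the same 4 libraries 3.77%, 2.82%, 5.06% and 14.5% of all 5′ UTR and CDS reads lay in 5′ UTRs, and in the shallow Pro 1 and Sen 2 11.6% and 52.4% did, so the libraries themselves differed, and their part in the BECN1 values was not tested.

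GABARAPL1 had 5′ UTR shares of 15.3% and 15.9% in Pro 2 and Pro 3 and of 14.4% and 6.25% in Sen 1 and Sen 3. As counted, it stood above BECN1 in both Pro libraries and below it in both Sen libraries, with intervals that overlapped in all but Sen 1. These shares leave out footprints assigned to GABARAPL3, 34 in Pro 2 and 72 in Pro 3, beside 47 and 95.5 in the CDS of GABARAPL1. Counting them would lower the GABARAPL1 shares, so its order against BECN1 in Pro is uncertain. ULK1 had 8.08% over the 6 libraries (4.15 to 15.1) from 8 footprints, and ATG5 had 4.81% (2.07 to 10.8) from 5. SQSTM1, with by far the most footprints, had 0.18% (0.0948 to 0.321), and the other 5 genes had at most 1.81%. In the annotation the 5′ UTR of the chosen BECN1 transcript holds 1 ATG and that of GABARAPL1 holds 0, while that of ATG7, with a footprint share of 0.431%, holds 8. The intervals hold for counting error alone, because PCR copies of a fragment are not separate molecules.

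**Figure D4:**
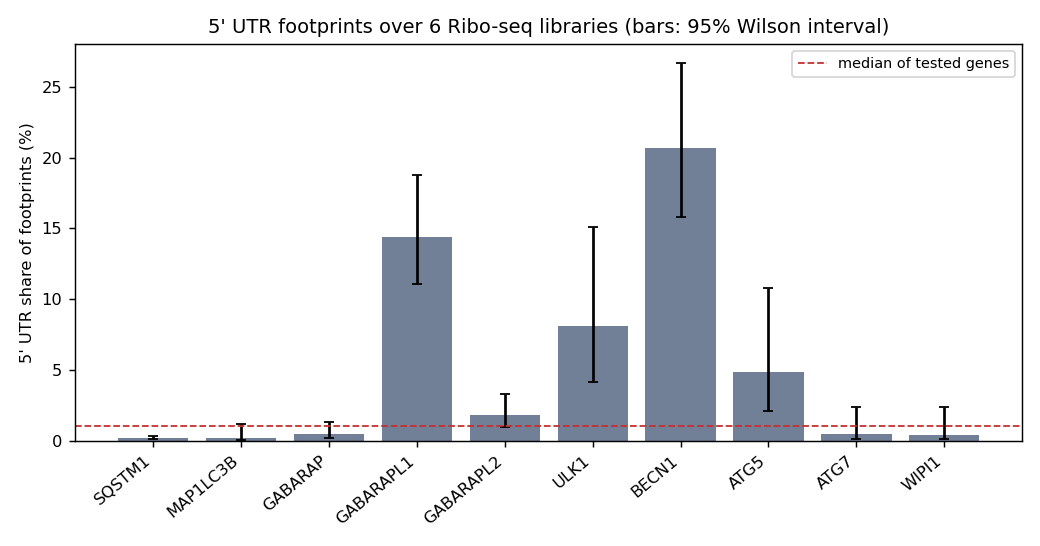
Share of 5′ UTR footprints among the 5′ UTR and CDS footprints of each core gene, in percent, summed over the 6 Ribo-seq libraries, with 95% Wilson intervals as error bars and the median of all genes tested in RPF as a dashed line. BECN1 and GABARAPL1 stand at 20.7% and 14.4%, ULK1 and ATG5 have wide intervals above the line, and the other 6 genes are at 1.81% or less. Footprints assigned to the pseudogene GABARAPL3 are left out, and counting them would lower the GABARAPL1 share.

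The rest of the pathway was described with 58 genes in 8 lists by role, of which 53 were tested in mRNA. Of these, 34 were called higher and 5 lower, where 36.6% and 37.0% of all genes were, with a median mRNA log2 fold change of 0.38. In RPF, 18 of 43 were called higher and 3 lower, against 27.5% and 26.9% of all genes, and in TE 0 of 43 were called by edgeR, against 10.0%. The genes called higher include MAP1LC3B2, whose CDS reads are those divided with MAP1LC3B, so its RPF call repeats that of the core gene. Those CDS reads were 2284 of its 3012 mRNA reads, so its mRNA call is mostly not separate from the core gene either. The lists were chosen with earlier results of these data known, and no test was made of a list.

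**Figure D5:**
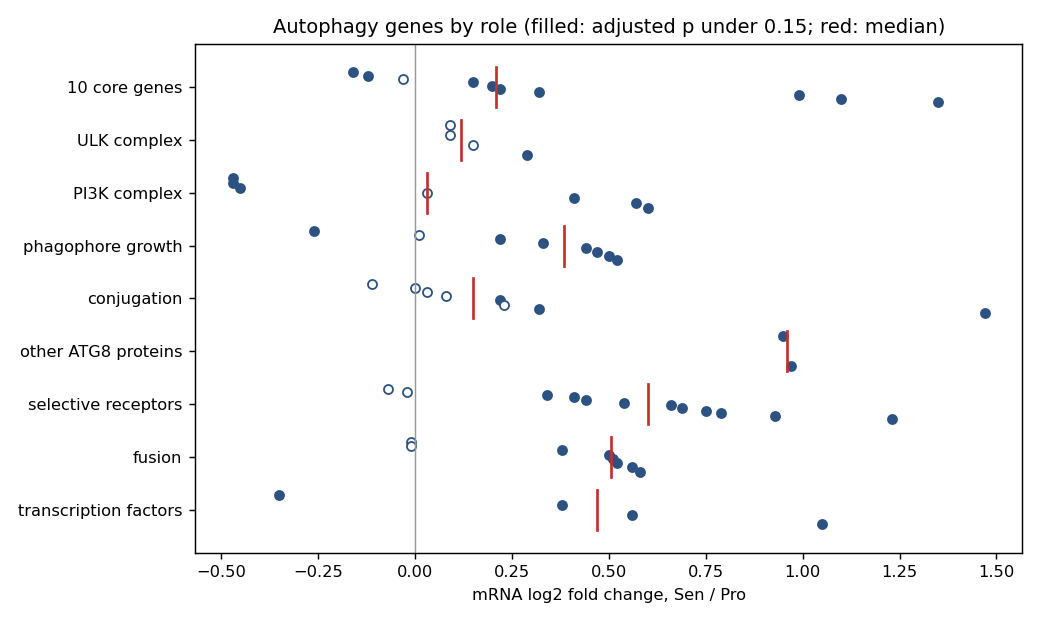
Log2 fold change in mRNA, senescent over proliferating, of the 10 core genes and of 8 lists of other autophagy genes by role. Each point is a gene, filled where the adjusted p was under 0.15, and red lines are medians. Selective receptors and fusion factors have medians of 0.60 and 0.50, and genes of the lipid kinase complex lie on both sides of 0.

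The ULK complex beside ULK1 had 1 of 4 genes called higher in mRNA and 0 lower, where 36.6% and 37.0% of all genes were. The called gene was the scaffold ATG13 (mRNA log2 fold change 0.29, edgeR adjusted p = 0.0013), with an RPF value of -0.24 that was not called. In the lipid kinase complex of BECN1, 3 of 7 genes were called higher and 3 lower in mRNA, near the shares of all genes. RUBCN, known as a negative regulator of autophagy, rose by 0.60 and UVRAG by 0.57, and neither was tested in RPF. ATG14, the subunit that directs the complex to autophagy, and AMBRA1, its activator, both had -0.47 in mRNA. In RPF, AMBRA1 was called (-0.64, adjusted p = 0.129) and ATG14 was not (-0.75, 0.191).

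Genes for phagophore growth had 6 of 8 higher and 1 lower in mRNA (36.6% and 37.0% of all genes). WIPI2, a relative of WIPI1, had 0.52 in mRNA and 1.03 in RPF (edgeR adjusted p = 3.72e-05), and VMP1, a lipid scramblase of the ER, had 0.50 and 0.37 (adjusted p = 0.0762), whereas the lipid transporter ATG2B fell by 0.26 in mRNA. Among the conjugation genes, 3 of 8 were higher in mRNA, near the share of all genes, and 0 lower. ATG4A, a protease that processes ATG8 proteins, rose most, from 11.5 ± 2.62 to 31.2 ± 3.01 CPM (log2 fold change 1.47, adjusted p = 1.24e-09), and ATG12, the partner of ATG5, had 0.32.

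Of the ATG8 paralogs outside the 10 genes, MAP1LC3A rose by 0.95 in mRNA and 0.90 in RPF (edgeR adjusted p = 0.00838). MAP1LC3B2, with reads divided as described, had 0.97 and 0.66. MAP1LC3C had 41 mRNA reads over 6 libraries and was not tested, and GABARAPL3 is counted as a pseudogene. The LC3 genes measured here, MAP1LC3A and MAP1LC3B with its copy, and GABARAPL2 thus had mRNA log2 fold changes of 0.95 to 1.10, against 0.15 and 0.20 for GABARAPL1 and GABARAP.

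Selective receptors beside SQSTM1 were called higher for 10 of 12 genes tested in mRNA and lower for 0, with a median of 0.60 (36.6% and 37.0% of all genes were called higher and lower). CALCOCO2 (NDP52), a receptor for bacteria and mitochondria, rose from 71.1 ± 3.69 to 167 ± 10.5 CPM (mRNA log2 fold change 1.23, edgeR adjusted p = 4.68e-12) and had 0.71 in RPF (adjusted p = 0.000943). CCPG1, a receptor for the ER, had 0.93 in mRNA and 0.57 in RPF (adjusted p = 0.0291). SQSTM1, with -0.12, stood below all 10 of these genes in mRNA fold change.

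Fusion factors were called higher for 6 of 8 genes in mRNA, against 36.6% of all genes, among them the SNARE proteins YKT6 (0.58, and 0.68 in RPF with adjusted p = 0.00982) and SNAP29 (0.56, and 0.23 in RPF, not called). Of the transcription factors known to drive autophagy genes, MITF rose by 1.05 (edgeR adjusted p = 7.91e-10) and TFE3 by 0.56 in mRNA, TFEB was called higher too, and FOXO3 fell by 0.35. In RPF, TFE3 was called (0.67, adjusted p = 0.0265), and MITF (0.51, adjusted p = 0.175) was not.

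Promoters of the 10 genes were searched on both strands for letters that such factors bind, in windows from 250 bases before to 50 after each start (RefSeq, GRCh38.p14; 13 windows, since some genes have several starts). None held CACGTG, the E-box read by the TFEB family, which 7.26% of all promoter windows hold, nor the longer TCACGTGA that contains it (0.98%) nor the FOXO letters GTAAACA (3.42%). TGACNNNGC, the core of the antioxidant response element, was found in MAP1LC3B (13.3% of all windows), and CCAAT in ATG5, BECN1 and WIPI1 (34.6%). These matches are descriptions of letters in short windows and say nothing on binding.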

How the data were processed

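Sample groups and replicate numbers came from the labels, with 3 libraries in each of 4 groups. The deposited tables hold expected counts per gene and region, unscaled, that the authors assigned with tools listed in the submitters' processing notes (cutadapt 1.18, Bowtie 1.0.1, SAMtools 1.8, DESeq2 1.22.2). Genome build, annotation release and strand rule were not given in the sources used here. Planned tests assumed whole counts, so values were rounded after regions had been summed. Symbols with a CDS read numbered 16451. edgeR 4.0.16 in R 4.3.3 (filterByExpr, TMM factors within library type, quasi-likelihood F test, two-sided, Benjamini-Hochberg over all genes) tested mRNA, RPF and, with the lysate as a block, TE. The lysate ties the 2 library types because RNA for both came from it. The correlation of their deviations was -0.046 to 0.059. A call was an adjusted p under 0.15, the study's threshold. DESeq2 1.42.0 and other settings were alternatives. The code was tested on simulated data. All 10 core genes are named in each layer. From each other list, up to 2 higher and 2 lower genes with the largest called mRNA changes are named. Members and lists were chosen with earlier results of these data known.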

Additional observations from a re-analysis of the deposited data

Results flagged for a closer look

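Footprints in the 3′ UTR, which enter no comparison above, were higher in every senescent than in every proliferating library for MAP1LC3B, with 0, 1 and 0.5 reads in Pro 1, 2 and 3 and 12.5, 2 and 3.5 reads in Sen 1, 2 and 3. The senescent mean was 16.8 CPM and rests mainly on the 35.2 CPM that 2 reads made in the shallow Sen 2. Per 100 CDS footprints there were 0, 1.62 and 0.371 in Pro and 5.50, 38.7 and 5.98 in Sen. Over all genes the same ratio was 16.0, 2.05 and 1.46 in Pro and 3.84, 36.4 and 6.02 in Sen, so it moved with the library as a whole, and the part of this in the MAP1LC3B values was not tested.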

How the results depend on the processing

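The mRNA calls of MAP1LC3B, GABARAPL2 and WIPI1 held in all 15 alternatives, and the RPF call of WIPI1 in all 14. Of mRNA values of the 10 genes, 117 kept direction and side of the threshold, 28 lost and 2 gained a call, and 3 turned sign. For RPF these were 104, 18, 1 and 18, and for TE 147, 0, 1 and 13. Every value that turned sign belonged to a gene and layer not called in the full data, and the causes were not tested. Depth limits RPF and TE, where Pro 1 and Sen 2 gave 11 of 493 RPF counts for MAP1LC3B and 3 of 99 for ATG5.

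Against 4088 RPF calls over all genes and 5 among the 10, DESeq2 gave 1164 and 1, a minimum of 10 RPF counts in every library 610 and 0 (SQSTM1 alone could be tested, at -0.05), and an adjusted p under 0.05 left 3 of the 10. Leaving out 1 library gave 2681 to 4556 and 1 to 5. Against 751 TE calls over all genes, DESeq2 gave 28, a filter of at least 1 read 428, at least 10 RPF counts in every library 236, an adjusted p under 0.05 259, and 1 lysate left out 150 to 1146. Without both shallow lysates there were 1183, 1 of them among the 10. Shares of the 3′ UTR without 5′ UTR reads were apart for 2 genes in place of 0, with no share of all genes computed for that setting.

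The replicate number was not treated as pairing Pro with Sen. Correlations of same-numbered deviations were 0.107, -0.21 and 0.248 in mRNA and 0.011 to 0.028 in RPF, where all 3 libraries of each state correlated best with their own number, against 1 of 3 in mRNA. With the replicate number as a block, 2336 genes were called in RPF and 1 of the 10, WIPI1, with ATG7 at 0.0011. Of mRNA the block left 9 of the 10 called. Without the lysate block, TE calls numbered 1339, with ATG7 at 0.05.

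Log2 fold changes turned sign in mRNA for ATG5 with CDS reads alone (0.04) and on leaving out 1 library (-0.18 to 0.03). In RPF they did so on library totals for SQSTM1 (-0.04), GABARAP (-0.12), GABARAPL1 (-0.13) and BECN1 (-0.02), without both shallow lysates for GABARAP (-0.03) and BECN1 (-0.0008), and for GABARAPL1 with RLE factors (-0.02), DESeq2 (-0.06) and at least 1 read (-0.0048). Leaving out 1 library gave RPF values of -0.09 to 0.17 for SQSTM1, -0.06 to 0.16 for GABARAP and -0.11 to 0.1 for GABARAPL1. In TE, DESeq2 turned BECN1 (0.22) and ATG7 (0.01), and CDS reads alone turned ATG7 (0.03). Leaving out 1 lysate gave TE values of -0.22 to 0.09 for GABARAP, -0.54 to 0.02 for GABARAPL2, -0.14 to 0.70 for ULK1, -0.23 to 0.12 for BECN1, -0.13 to 0.03 for ATG7 and -0.33 to 0.2 for WIPI1.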
